A study of Mus musculus with 12 samples.

Results

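The response to ischemia-reperfusion injury (IRI) was followed in CD4 T cells sorted from kidneys of mice labelled as a CD4 Keap1 knockout (KO). It was read across the 12065 protein-coding genes whose mean over all 12 libraries of the study was at least 1 FPKM (fragments scaled for transcript length and library size), out of 52632 genes in the table and 21896 protein-coding ones. The contrast sets 3 libraries of the CD4 Keap1 KO IRI group (KO IRI 1 to 3) against 3 of the CD4 Keap1 KO control group (KO control 1 to 3). IRI was 30 min of clamping of both kidneys, and tissue was taken 24 h later. All KO mice were bred in house on a C57BL6/J background. The labels do not state how Keap1 was deleted, whether controls had sham surgery, or if each library stands for its own animal. The p-values therefore weigh differences against library-to-library spread, which may be technical. WT control and WT IRI groups, 3 libraries each of purchased C57BL6/J mice, are used here to test whether the response differed with genotype. Genotype and mouse source cannot be told apart in that test.

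KEAP1 is an adaptor that marks the transcription factor NRF2 for degradation, and oxidants or loss of KEAP1 let NRF2 accumulate and raise genes of glutathione synthesis, thioredoxin recycling and quinone reduction. Kidney CD4 T cells include resident memory cells, which stay in the tissue and rapidly make cytokines, and cells that enter from blood after injury. Cytokines of the IL-6 and IL-10 families act on T cells through the factor STAT3, whose target SOCS3 limits the same signal.

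The label of the sorted cells was checked against its defining markers. Cd4 was at 382, 183 and 276 FPKM in KO controls and at 237, 149 and 236 after IRI, and the T cell receptor genes Cd3e and Trac were high in all 6 KO libraries. Nqo1, the quinone reductase most used to report NRF2 activity, was at 3.38 to 7.75 FPKM in the 6 KO libraries, against means of 0.0892 in WT controls and 0.317 in WT IRI. Keap1 transcripts were present in all 6 KO libraries (4.59 to 7.77 FPKM), and a whole-gene value does not check a deletion of some exons. KO control 1 stood apart: its small nucleolar RNAs summed to 601100 FPKM against at most 166300 in any other library, the abundant nuclear RNA Malat1 was listed at 0 in it, and 197 of the 12065 genes were listed at 0, against 17 to 107 in the other KO libraries. Within genotype KO, the Spearman coefficient across the 12065 genes was 0.939 to 0.968 for the 6 pairs of libraries of 1 group and 0.900 to 0.951 for the 9 pairs across groups. FPKM keeps no counts, so no depth can be given per library.

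Promoters of 4 genes on which the results turn are printed first, since their letters hold the motifs counted further on. Each is the 250 bases before a RefSeq transcript start in GRCm38.p6, read 5' to 3' on the strand of the gene. Socs3 (chr11:117969367-117969616, minus strand) and Sbno2 (chr10:80102703-80102952, minus strand) rose after IRI, and the capitals in them mark the element TTCNNNGAA bound by STAT factors. Nkg7 (chr7:43436888-43437137, plus strand) fell, and its capitals mark the same STAT element and then the T-box element AGGTGTGA, bound by factors such as TBX21. Art2b (chr7:101581162-101581411, minus strand) fell as well, and its capitals mark the AP-1 element TGANTCA.
Socs3: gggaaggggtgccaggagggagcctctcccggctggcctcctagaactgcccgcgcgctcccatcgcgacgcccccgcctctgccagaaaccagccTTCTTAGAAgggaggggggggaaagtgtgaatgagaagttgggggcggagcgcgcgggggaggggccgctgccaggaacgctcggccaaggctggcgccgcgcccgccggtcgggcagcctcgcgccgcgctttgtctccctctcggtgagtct
Sbno2: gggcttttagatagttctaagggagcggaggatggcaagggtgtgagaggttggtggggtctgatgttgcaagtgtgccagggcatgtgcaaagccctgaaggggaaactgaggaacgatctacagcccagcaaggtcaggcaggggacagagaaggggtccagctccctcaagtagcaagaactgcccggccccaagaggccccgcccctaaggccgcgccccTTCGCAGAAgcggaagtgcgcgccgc
Nkg7: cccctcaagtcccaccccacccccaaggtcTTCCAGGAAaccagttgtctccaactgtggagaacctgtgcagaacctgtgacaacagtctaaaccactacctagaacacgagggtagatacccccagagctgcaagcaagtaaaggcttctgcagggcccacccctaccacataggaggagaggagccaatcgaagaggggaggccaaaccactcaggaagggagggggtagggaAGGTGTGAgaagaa
Art2b: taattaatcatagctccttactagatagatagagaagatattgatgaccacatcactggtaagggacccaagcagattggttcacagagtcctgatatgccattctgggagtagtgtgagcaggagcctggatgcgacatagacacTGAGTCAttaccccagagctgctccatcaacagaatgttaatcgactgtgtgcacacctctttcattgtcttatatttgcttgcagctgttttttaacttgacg

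After IRI, 59 genes were higher in KO cells (0.489% of the 12065) and 86 were lower (0.713%), so that 145 passed an adjusted p of 0.05 (1.2%). The test was limma on log2(FPKM + 1), a scale that understates changes of low genes, adjusted over all 19288 genes of any type with a mean of at least 1 FPKM. Before adjustment, 2013 genes had p under 0.05 (16.7%). Over all 19288 tested genes 167 passed (0.866%). All 145 genes had KO IRI and KO control libraries that did not overlap. Over all 12065 genes, 1111 (9.21%) had every IRI library above every control and 1309 (10.8%) had every one below. Rises that passed ran from a log2 of 0.86 to 4.00 with a median of 1.42, and falls from -0.85 to -3.79 with a median of -1.48, while the median of all 12065 genes was -0.06. After each library was rescaled by median ratios, 360 genes passed (2.98%), 171 higher (1.42%) and 189 lower (1.57%), and 141 of the 145 were among them. Scaling to an equal protein-coding FPKM total changed the split, with 28.7% of the genes that passed being higher, against 40.7% as deposited. The count rested on single libraries. It was 49 without KO control 1, 607 without KO control 2, 44 without KO control 3, 260 without KO IRI 1, 33 without KO IRI 2 and 49 without KO IRI 3. WT libraries are outside this contrast but enter its spread. Leaving out 1 of them gave 72 (WT control 2) to 166 (WT IRI 3). Of the 145 genes, 31 kept their call without each of the 12 libraries in turn, and the other 114 lost it without at least 1, with adjusted p-values of up to 0.202. The 31 included Socs3, Sbno2, Hif1a, Nfil3, Ikzf4, Ramp3, Rapgef3, Ston1, Neb, Acer2, Clec4d and Arid5a among rises, and Zfp683, Xcl1, Cxcr6, Itga1, Tbx21, Nkg7, Art2b, Ly6c2, Mmp9, Hpgd, Lilra5 and Cd40lg among falls. Most other genes named below lost their call without at least 1 library, and the highest adjusted p then reached is given for them. In the 6 KO libraries fitted alone, limma called 0 of the 12065 genes, with 1738 at an unadjusted p under 0.05.

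**Figure D1:**
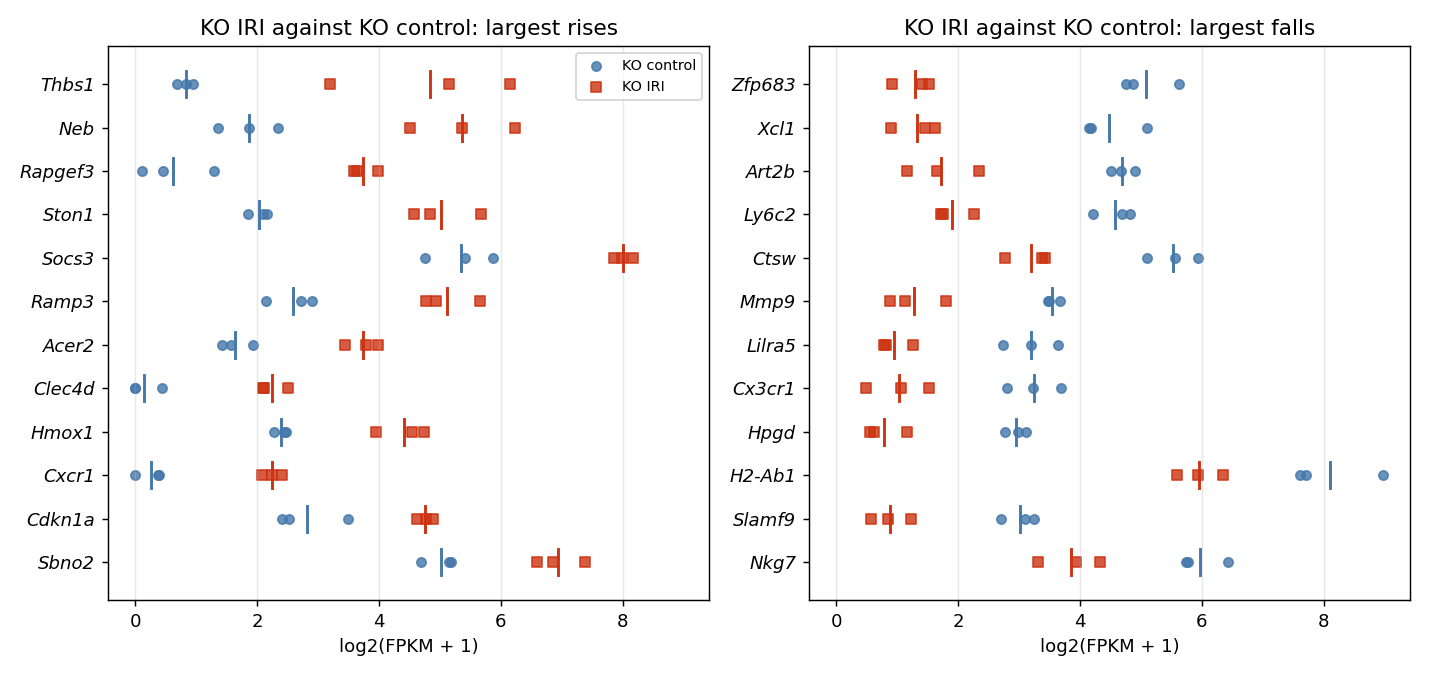
Values of the 12 largest rises and 12 largest falls among the named genes that passed, on the log2(FPKM + 1) axis, with 1 point per library (circles for KO control, squares for KO IRI) and a bar at each group mean. In every row the squares lie apart from the circles, which the rule that picked these genes required. The squares of Thbs1 spread from 8.15 to 69.7 FPKM while those of Socs3 lie between 230 and 286.

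Feedback on cytokine signals was led by Socs3, the inhibitor induced by STAT3. It was at 41.6, 26 and 57.3 FPKM in KO controls and at 252, 230 and 286 after IRI. All 3 IRI libraries lay far above all 3 controls, a log2 rise of 2.66 ± 0.28 (SE, n = 3, adjusted p = 0.00405). Sbno2, a corepressor gene induced by IL-10, was at 35.2, 24.9 and 34.6 FPKM and then at 95.5, 115 and 165, a rise of 1.93 ± 0.23 (adjusted p = 0.00566). Bcl3, an atypical IkB protein that shapes NF-kB output, was at 15.0, 9.33 and 18.1 FPKM and then at 48.0, 54.0 and 48.1, a rise of 1.80 ± 0.28 (adjusted p = 0.0191, and 0.104 without KO IRI 2). Of 16 tested genes of SOCS and STAT3 feedback, 2 rose (Socs3 and Bcl3), 0 fell and 14 did not pass, with a median log2 of 0.36, and 7 had every IRI library above every control against 0 below. Over all 12065 genes those shares were 9.21% above and 10.8% below, and 0.489% passed upward. Stat3 itself did not pass, with means of 97.4 and 196 FPKM and a log2 of 0.98 ± 0.25 (adjusted p = 0.103). Nor did the interleukin gene Il10, at 1.39 and 5.24 FPKM (1.35 ± 0.31, adjusted p = 0.0751). After rescaling both passed (adjusted p = 0.0295 and 0.0373). Stat3 and Il10, like other genes named below that did not pass, were chosen after their values were seen unless the rule for names covers them.

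The printed STAT element of Socs3 ends 146 bases before the transcript start and that of Sbno2 ends 18 bases before the start printed. Sbno2 has other starts. The promoter at chr10:80101188-80101437 holds TTCCCGGAA, ending 16 bases before its start, and that at chr10:80075440-80075689 holds no STAT element. TTCNNNGAA, searched on both strands, stood in 6.19% of the 12091 promoters of the measured genes (9489 of the 12065 matched a promoter). It stood in 10.3% of the 58 promoters of genes that rose (the genes Socs3, Sbno2, Gpr146, Arid5b and Inpp5a, the last 2 losing their call without 1 library, at adjusted p up to 0.1455 and 0.0842) and in 8.97% of the 78 promoters of genes that fell. No test was made of these shares, and a match shows letters, not binding. The GC box GGGCGGGG was the most frequent of the 12 motifs searched, in 27.98% of all, 44.8% of the rising and 17.9% of the falling promoters.

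Factors that set the response to low oxygen and to inflammation rose beside these. Hif1a, the oxygen-regulated subunit of the hypoxia factor, was at 58.2, 48.9 and 61.8 FPKM in KO controls and at 163, 196 and 268 after IRI, a rise of 1.85 ± 0.22 (adjusted p = 0.00566). It was the 1 gene of 17 in the hypoxia list to pass, with 16 not passing and a list median of 0.34, and 0 of 18 glycolysis genes passed (median -0.17). Nfil3, a bZIP repressor that links clock and cytokine responses, went from 3.98 ± 0.214 to 17.2 ± 1.51 FPKM (SD, n = 3), a log2 of 1.87 ± 0.23 (adjusted p = 0.00702). Arid5a, an RNA-binding protein that stabilises inflammatory transcripts, was at 76.2, 57.4 and 80.6 FPKM and then at 178, 193 and 170 (1.34, adjusted p = 0.0086). Nfkbiz, another atypical IkB protein, rose by 0.99 ± 0.16 (adjusted p = 0.0191, and 0.0798 without KO control 3). Of 19 NF-kB and inflammatory genes, 2 rose (Nfkbiz and Bcl3), 1 fell (Tnf) and 16 did not pass, with a median of 0.34. Among 21 AP-1 and immediate early genes 2 rose and 0 fell. Those were Maff, a small MAF protein (7.38 ± 0.516 to 21.5 ± 6.38 FPKM, adjusted p = 0.0191, and 0.0881 without KO control 3), and the stress gene Gadd45g (16.6 ± 6.98 to 43.1 ± 4.11 FPKM, adjusted p = 0.0478, and 0.172 without KO IRI 2). The other 19 did not pass, but the list had a median of 0.67, with 11 genes separated upward and 0 downward, Fos (269 and 458 FPKM, adjusted p = 0.246) and Junb (522 and 859, adjusted p = 0.213) among the 21. Over all 12065 genes 0.489% passed upward and 0.713% downward, and 9.21% were separated upward and 10.8% downward. After rescaling, 5 rose and 0 fell.

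The largest rise was that of Thbs1 (chromosome 2, 118111876 to 118127133, GRCm38), a matrix protein that activates latent TGF-beta. It was at 0.619, 0.786 and 0.939 FPKM in KO controls and at 69.7, 34.5 and 8.15 after IRI, a log2 of 4.00 ± 0.63 (adjusted p = 0.0191, and 0.111 without KO IRI 2). The IRI libraries were all higher but differed widely among themselves. Every KO control was below 1 FPKM, so Thbs1 met the mean of at least 1 FPKM through libraries with higher values. Its rise is therefore not independent of that filter. Thbs1 lost its call without the filter and at a pseudocount of 5. Gm29233, a lincRNA on the opposite strand that overlaps Thbs1, had a log2 of 4.09 without passing (adjusted p = 0.0523), and the strand setting of the counting is not stated, so reads of the pair may be shared. Of 16 TGF-beta genes Thbs1 alone passed, and the list median was 0.10. Neb, known as a giant thin-filament protein of muscle, was at 2.65, 4.09 and 1.57 FPKM and then at 73.9, 40.2 and 21.8 (3.51 ± 0.39, adjusted p = 0.00491). Ston1, an endocytic adaptor, rose from 3.12 ± 0.439 to 33.4 ± 14.4 FPKM (2.99 ± 0.27, adjusted p = 0.00192). Acer2, a ceramidase of the Golgi, rose from 2.16 ± 0.583 to 12.5 ± 2.48 FPKM (2.099 ± 0.21, adjusted p = 0.00405). The order of libraries in Neb and Ston1 was that of Thbs1, highest in KO IRI 1 and lowest in KO IRI 3, but that of Acer2 was not.

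Genes that tune cyclic AMP signals held 2 of the largest rises. Rapgef3 encodes EPAC1, an exchange factor switched on directly by cyclic AMP, and it was at 0.0812, 1.46 and 0.378 FPKM in KO controls and at 11.1, 11.4 and 14.9 after IRI (3.11 ± 0.39, adjusted p = 0.00702). Ramp3, a partner protein that sets which peptide the calcitonin-like receptor binds, was at 5.57, 6.48 and 3.42 FPKM and then at 26.2, 49.3 and 29.8 (2.53 ± 0.27, adjusted p = 0.00408). Neither gene overlapped between groups, and neither lost its call without any single library. The other 19 of 21 tested cyclic AMP genes did not pass, and the list median was -0.16, while 0.489% of all 12065 genes rose.

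Genes of regulatory cells and of restraint rose in part. Ikzf4 (Eos), a partner of FOXP3, was at 2.16, 2.06 and 3.60 FPKM in KO controls and at 9.28, 10.4 and 14.6 after IRI (1.79 ± 0.22, adjusted p = 0.00683). Ctla4, which removes costimulatory ligands from antigen-presenting cells, was at 66.9, 64.8 and 64.0 FPKM and then at 238, 162 and 142 (1.42 ± 0.24, adjusted p = 0.0269, and 0.106 without KO control 3). Tigit, an inhibitory receptor that competes with CD226 for its ligand, was at 24.3, 23.7 and 24.8 FPKM and then at 58.7, 69.5 and 48.4 (1.23 ± 0.24, adjusted p = 0.0492, and 0.199 without KO IRI 2). The controls of Ctla4 and Tigit were tight and the IRI libraries lay well above them. These were the 3 of 18 regulatory T cell genes that rose, beside 0.489% of all 12065 genes. Of the others 0 fell and 15 did not pass. The list median was 0.04, with 9 genes above 0 and 9 below. Foxp3, the defining factor of the lineage, had means of 13.4 and 17.5 FPKM (0.18 ± 0.37, adjusted p = 0.862). Of 14 inhibitory receptors, Ctla4 and Tigit rose, Cd96 and the ectonucleotidase Entpd1 (CD39) fell, and 10 did not pass. Of all 12065 genes 0.489% rose and 0.713% fell. Without KO IRI 2 the adjusted p of Cd96 was 0.1765. After rescaling, 5 of the 14 rose and 2 fell. Cblb, a ubiquitin ligase that dampens receptor signals, rose from controls at 28.4 to 36.8 FPKM to 69.1, 103 and 134 (1.54, adjusted p = 0.0199, and 0.104 without KO IRI 2). Il4ra, the receptor chain for IL-4 and IL-13, rose by 1.12 ± 0.22 (adjusted p = 0.0492, and 0.173 without KO IRI 3), the 1 call among 12 Th2 genes. In the p53 and apoptosis list of 20, the cell cycle inhibitor Cdkn1a rose from 6.47 ± 3.33 to 26.1 ± 2.38 FPKM (adjusted p = 0.0266, and 0.114 without KO IRI 3) and the death-promoting Bcl2l11 from 56.2 ± 12.5 to 136 ± 9.44 (adjusted p = 0.032, and 0.132 without KO IRI 2), while 18 did not pass.

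Falls were led by genes of tissue-resident cells. Zfp683 (chromosome 4, 134053838 to 134058996) encodes HOBIT, a repressor that establishes residency, and it was at 48.5, 25.9 and 28.2 FPKM in KO controls and at 1.66, 0.888 and 1.89 after IRI. It fell by 3.79 ± 0.29 on the log2 scale (adjusted p = 0.000656). Xcl1, a chemokine that attracts cross-presenting dendritic cells, was at 33.4, 17.1 and 16.7 FPKM and then at 0.864, 2.095 and 1.75 (-3.15 ± 0.29, adjusted p = 0.00192). No IRI library came near a control in either gene. Gm20743, a transcript that overlaps Xcl1 on the opposite strand, fell as well (-1.47, adjusted p = 0.0266, and 0.0988 without KO IRI 3), and reads of the pair may be shared. Cxcr6, which holds T cells beside cells that make CXCL16, was at 122, 99.9 and 89.3 FPKM and then at 19.6, 27.5 and 24.8 (-2.07 ± 0.27, adjusted p = 0.0086). Itga1 (CD49a), a collagen-binding integrin, went from 11.7 ± 3.69 to 2.62 ± 0.481 FPKM (-1.78 ± 0.22, adjusted p = 0.00702). These 4 of 23 residency genes fell, 0 rose and 19 did not pass, while 0.713% of all 12065 genes fell. The list median was -0.35 (-0.06 without KO control 1), with 10 genes above 0 and 13 below. Of the 23, 6 were separated downward and 2 upward, beside 10.8% and 9.21% of all 12065 genes. Xcl1 was also the 1 call among 14 chemokine ligands. Trafficking receptors had 1 fall among 22 and a median of -0.70. Other members did not follow: the retention gene Cd69 had means of 154 and 151 FPKM (-0.02 ± 0.20, adjusted p = 0.999, and 0.09 after rescaling). In these bulk samples, fewer cells of a type and less RNA per cell cannot be told apart.

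Of the genes of type 1 helper function, 3 fell. Tbx21 (T-bet), the factor that directs the Th1 fate, was at 29.5, 23.01 and 22.9 FPKM in KO controls and at 8.15, 5.78 and 7.25 after IRI (-1.70 ± 0.18, adjusted p = 0.00405). Nkg7, which serves release of cytotoxic granules, was at 84.7, 52.2 and 53.7 FPKM and then at 19.1, 8.88 and 14.3 (-2.12 ± 0.28, adjusted p = 0.00973). Tnf was at 53.1, 31.4 and 34.4 FPKM and then at 14.0, 11.1 and 10.01 (-1.65 ± 0.23, adjusted p = 0.0111, and 0.0641 without KO IRI 2). Of the 16 Th1 genes tested, 0 rose and 13 did not pass, while 0.713% of all 12065 genes fell. The list median was -1.05, against -0.06 for all 12065 genes. Of its genes, 10 were separated downward against 1 upward, beside 10.8% and 9.21% of all 12065 genes. Ifng, the signature Th1 cytokine, had means of 92.0 and 27.3 FPKM without passing (-1.59 ± 0.40, adjusted p = 0.103), as did the chemokine receptor Cxcr3 (79.1 and 33.1 FPKM, adjusted p = 0.0546, and 0.0395 after rescaling). After rescaling, 6 of the 16 Th1 genes fell and 0 rose. Ctsw, a protease of cytotoxic lymphocytes, fell by 2.33 ± 0.34 (adjusted p = 0.0135, and 0.0783 without KO IRI 2), and Ly6c2, a surface protein of effector T cells and monocytes, was at 27.4, 17.6 and 24.8 FPKM and then at 3.80, 2.29 and 2.36 (-2.67 ± 0.31, adjusted p = 0.00566). The T-box element AGGTGTGA printed in Nkg7, 7 bases before its start, stood in 0.827% of all promoters, in 2.56% of those of genes that fell (Nkg7 and Samd3) and in 0% of those of genes that rose.

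Sensing of extracellular nucleotides held 3 falls among 12 genes, with 0 rises and 9 that did not pass, while 0.713% of all 12065 genes fell. Art2b attaches ADP-ribose from extracellular NAD to P2RX7, an ATP-gated channel whose opening can kill T cells. Art2b was at 24.4, 21.9 and 28.9 FPKM in KO controls and at 4.08, 2.14 and 1.23 after IRI (-2.98 ± 0.35, adjusted p = 0.00566). P2rx7 was at 69.1, 34.3 and 41.6 FPKM and then at 19.4, 12.4 and 11.8 (-1.64 ± 0.27, adjusted p = 0.0259, and 0.125 without KO IRI 2). Entpd1, which degrades ATP, was at 29.3, 20.2 and 22.9 FPKM and then at 9.38, 12.7 and 9.01 (-1.14 ± 0.23, adjusted p = 0.0493, and 0.185 without KO control 1). Each of these 3 genes lay below every control in all 3 IRI libraries, as did every fall that passed. Of the 12 genes, 5 were separated downward and 1 upward, beside 10.8% and 9.21% of all 12065 genes. The near copy Art2a-ps may share reads with Art2b, so its values carry that doubt. The AP-1 element TGANTCA, printed 98 bases before the start of Art2b, stood in 4.5% of all promoters, 12.8% of those of genes that fell (9 genes, P2rx7 and Oas3 among them) and 1.72% of those of genes that rose.

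Antigen receptor and costimulation genes held 6 falls and 0 rises in lists of 23 and 21, while 0.713% of all 12065 genes fell. Cd3g, a chain of the receptor complex, was at 343, 254 and 418 FPKM in KO controls and at 151, 122 and 114 after IRI (-1.37 ± 0.21, adjusted p = 0.0191, and 0.0960 without KO IRI 2). Thy1, a surface glycoprotein of T cells, fell by 1.95 ± 0.38 (adjusted p = 0.048, and 0.198 without KO IRI 2). Of 23 genes of the receptor complex and its proximal signalling these 2 fell, 0 rose and 21 did not pass, with a median of -0.52 and 13 genes separated downward against 2 upward. The shares over all 12065 genes were 10.8% downward and 9.21% upward. Cd3e (267 ± 50.5 and 185 ± 16.3 FPKM, adjusted p = 0.249), Trac (adjusted p = 0.373) and Cd4 (280 ± 99.7 and 207 ± 50.6 FPKM, adjusted p = 0.558) did not pass. Of 21 costimulatory and TNF family genes, 4 fell, 0 rose and 17 did not pass, with a median of -0.21. Cd40lg, the helper signal to B cells and macrophages, was at 90.7, 86.4 and 102 FPKM and then at 47.7, 39.4 and 37.9 (-1.15 ± 0.15, adjusted p = 0.00973). Cd226, the activating counterpart of TIGIT, was at 62.0, 61.6 and 75.0 FPKM and then at 27.2, 17.9 and 22.4 (-1.53 ± 0.21, adjusted p = 0.0111, and 0.0561 without KO control 3). Tnfsf14 (LIGHT) fell by 1.58 ± 0.27 (adjusted p = 0.0266, and 0.130 without KO IRI 2), and Tnf was the 4th. Thus CD226 transcripts fell while TIGIT transcripts rose in the same 3 libraries.

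Interferon and secretory stress genes held 3 falls and 0 rises in lists of 26 and 21, while 0.713% of all 12065 genes fell. Oas3, a sensor that makes 2'-5' oligoadenylates, was at 14.5, 10.6 and 15.8 FPKM in KO controls and at 4.15, 3.64 and 3.66 after IRI (-1.59 ± 0.24, adjusted p = 0.0172, and 0.0960 without KO IRI 2). It was the 1 of 26 interferon stimulated genes to fall, with 0 rises, but the list median was -0.63 and 12 genes were separated downward against 0 upward. The shares over all 12065 genes were 10.8% downward and 9.21% upward. Mx1, an antiviral GTPase, had means of 9.24 and 2.85 FPKM and passed only after rescaling (adjusted p = 0.0579 as deposited and 0.0263 rescaled). Sdf2l1 and Pdia4, chaperones of the endoplasmic reticulum, fell among 21 ER and amino acid stress genes: Sdf2l1 (9.46 ± 2.37 to 2.97 ± 0.760 FPKM, adjusted p = 0.0161, and 0.0869 without KO IRI 2) and Pdia4 (58.1 ± 10.8 to 25.3 ± 3.32, adjusted p = 0.0216, and 0.104 without KO IRI 2), with 0 rises and 19 that did not pass. Anxa1, a glucocorticoid-induced regulator of inflammation, fell by 1.70 ± 0.26 (adjusted p = 0.017, and 0.0783 without KO IRI 2) in a glucocorticoid list of 21 whose median was 0.44 and whose other 20 genes did not pass. Of these 21 glucocorticoid genes, 10 were separated upward and 2 downward, and after rescaling 2 rose and 2 fell. No call was made among 33 oxidative phosphorylation, 31 ribosomal protein, 29 cell cycle, 27 proteasome, 17 cytosolic heat shock or 12 Th17 genes, whose medians lay between -0.44 and 0.13.

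**Figure D2:**
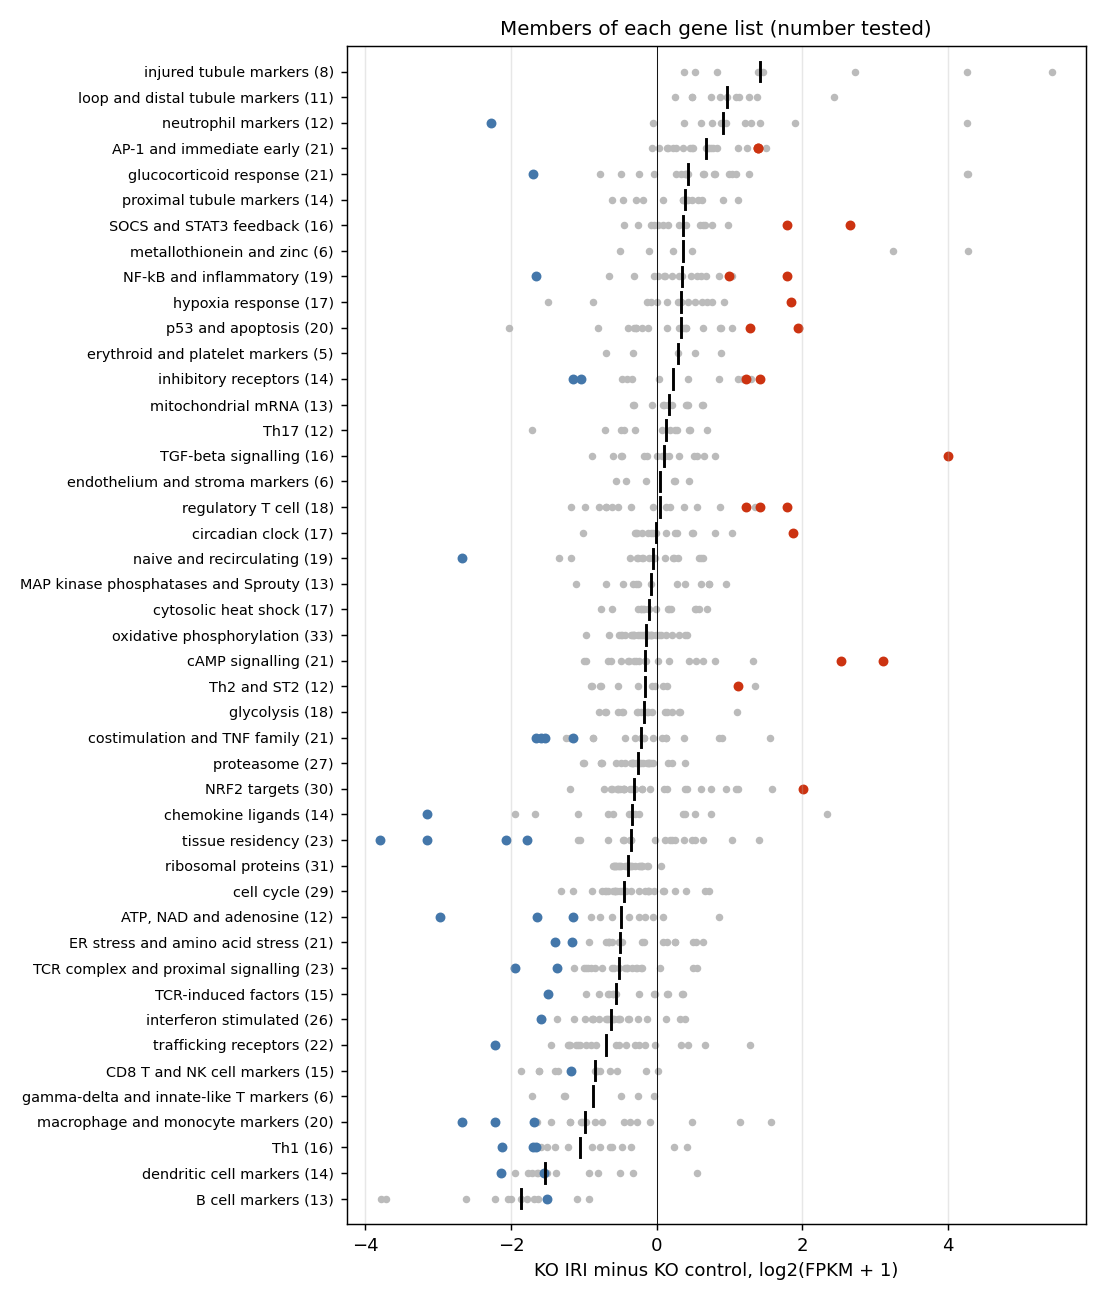
Log2 difference between KO IRI and KO control for the tested members of each of 45 gene lists, 1 point per gene, with the number tested in parentheses and a black bar at the list median. Red points passed upward, blue points passed downward and grey points did not pass, and the Th1, dendritic cell and B cell lists have the lowest medians (-1.05, -1.53 and -1.87).

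NRF2 targets held 1 call among 30 tested, so that most of the programme that KEAP1 restrains did not pass in either direction after IRI. Hmox1, the enzyme that degrades heme, was at 4.44, 3.83 and 4.57 FPKM in KO controls and at 25.8, 22.2 and 14.4 after IRI (2.01 ± 0.31, adjusted p = 0.0189, and 0.104 without KO IRI 2). The other 29 did not pass, 19 of the 30 had a log2 below 0, and the median was -0.31 (-0.21 after rescaling and -0.16 without KO control 1). Nqo1 was at 6.49 ± 1.48 and 5.03 ± 1.77 FPKM (SD, n = 3; -0.34 ± 0.28, adjusted p = 0.628). The peroxide and thioredoxin enzymes Prdx1 (-0.46 ± 0.19, adjusted p = 0.317), Txnrd1 (-0.30 ± 0.24, 0.607) and catalase (Cat, -0.73 ± 0.19, 0.115) had log2 values below 0 without passing. Gclc (0.39 ± 0.30, adjusted p = 0.593) and Gclm (-0.31 ± 0.35, 0.718), the subunits of the enzyme that starts glutathione synthesis, did not pass either. Slc7a11, which imports cystine for glutathione, was at 1.76, 2.79 and 1.04 FPKM in KO controls and at 5.64, 5.35 and 4.13 after IRI, separated but short of the threshold (1.11 ± 0.26, adjusted p = 0.0766). Srxn1, which repairs oxidised peroxiredoxins, overlapped between groups (0.95 ± 0.57, adjusted p = 0.491). Keap1 (6.71 ± 1.01 and 5.61 ± 0.895 FPKM, adjusted p = 0.619) and Nfe2l2, which encodes NRF2 (25.6 ± 5.89 and 32.1 ± 11.5, adjusted p = 0.698), did not pass.

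Transcripts of other cell types moved with the groups, and their part in the results above was not tested. The 14 B cell markers summed to 1775, 360 and 495 FPKM in KO controls and to 111, 184 and 69.8 after IRI. All 13 tested ones were separated downward, beside 10.8% of all 12065 genes, and 1 passed (Ighm, -1.50 ± 0.26, adjusted p = 0.03, and 0.133 without KO IRI 2). Their median was -1.87, and -1.47 without KO control 1. The 15 dendritic cell markers summed to 1914, 957 and 962 FPKM and then to 336, 326 and 496, and 2 of 14 fell, the class II gene H2-Ab1 (-2.14 ± 0.39, adjusted p = 0.0401, and 0.170 without KO IRI 2) and Clec9a (-1.54 ± 0.28, adjusted p = 0.0402, and 0.139 without KO control 1). Macrophage and monocyte markers summed to 830, 480 and 638 FPKM and then to 597, 464 and 347, which overlapped, while 3 of 20 fell (Ly6c2, then Cx3cr1 and Adgre1, at 0.128 and 0.136 without KO IRI 2) and the median was -0.98. Neutrophil markers summed to 41.6, 30.5 and 26.4 FPKM and then to 110, 71.6 and 66.2, with a median of 0.91, although the 1 of 12 that passed, Mmp9, fell from 10.7 ± 0.960 to 1.51 ± 0.870 FPKM (adjusted p = 0.00491) and S100a8 did not pass (adjusted p = 0.189). A pair of myeloid receptor genes was near 0 in controls and rose, Clec4d (0, 0.351 and 0 FPKM to 4.68, 3.33 and 3.31, adjusted p = 0.0111) and Cxcr1 (0, 0.312 and 0.291 to 3.77, 4.29 and 3.22, adjusted p = 0.0315, and 0.132 without KO IRI 2). Both met the mean of at least 1 FPKM through libraries with higher values than the KO controls, so their rises are not independent of that filter. Without the filter Clec4d kept its call and Cxcr1 lost it. CD8 T and NK cell markers summed to 192, 119 and 138 FPKM and then to 84.3, 52.4 and 60.7, and Cd8b1 fell (-1.17 ± 0.21, adjusted p = 0.0388, and 0.142 without KO IRI 3). The NK cell marker Ncr1 was at 7.22, 2.12 and 2.92 FPKM in KO controls and at 0.183, 0.495 and 0.174 after IRI. Klrb1c, also an NK cell marker, was at 4.164, 6.21 and 3.715 FPKM and then at 2.577, 2.729 and 1.408, and neither passed. Markers of injured tubule summed to 7.63, 15.0 and 9.26 FPKM and then to 26.9, 358 and 418, with 0 of 8 passing and a median of 1.43. Loop and distal tubule markers summed to 5.75, 65.9 and 31.3 FPKM and then to 14.4, 72.0 and 438.9, and proximal tubule markers to 56.8, 244.7 and 85.3 and then to 57.3, 93.2 and 483. Both overlapped between groups and were highest in KO IRI 3, and 0 of their 11 and 14 tested genes passed. Gamma-delta and innate-like T markers summed to 72.7, 50.7 and 53.5 FPKM and then to 48.8, 32.4 and 31.8, and mitochondrial mRNAs to 30750, 29280 and 33120 and then to 36130, 38140 and 50260. For the B cell, dendritic cell, neutrophil, CD8 T and NK cell, gamma-delta, injured tubule and mitochondrial sums the exact permutation test, two-sided, gave p = 0.1, the smallest that 3 against 3 libraries allow, and for the macrophage, loop and distal, and proximal sums p = 0.2, 0.4 and 0.6. None of these lists had all of its markers at 0. Receptor complex genes, for scale, summed to 5178, 3685 and 5436 FPKM and then to 3653, 2854 and 3205.

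**Figure D3:**
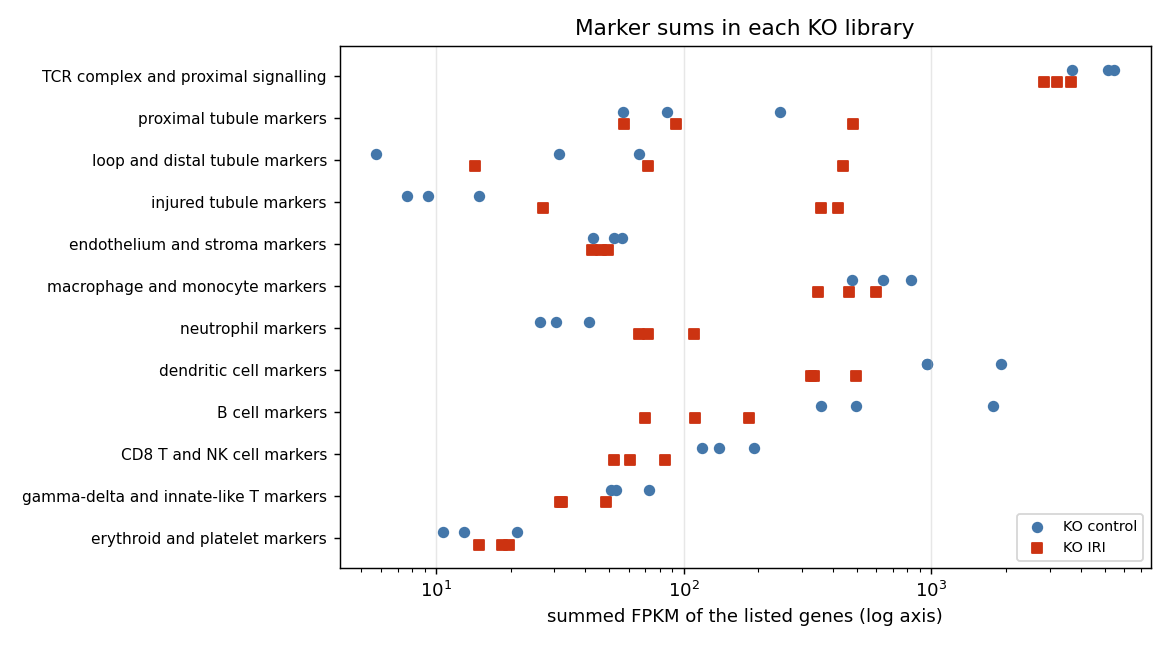
Summed FPKM of each marker list on a log axis, with 1 point per KO library (circles for KO control, squares for KO IRI). The squares lie left of the circles for B cell, dendritic cell, CD8 T and NK cell and receptor complex genes, and right of them for neutrophil and injured tubule markers, where KO IRI 1 reached 26.9 and the other IRI libraries 358 and 418.

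Whether the KO response differed from that of WT cells was asked with the genotype by IRI interaction. Over the 12065 genes 0 passed by limma (0%), the smallest adjusted p was 0.9995, and 286 (2.37%) had an unadjusted p under 0.05. Over all 19288 genes of any type 1 passed (0.00518%), a small nucleolar RNA. In WT cells 632 genes passed (5.24%), 188 higher (1.56%) and 444 lower (3.68%), out of 729 of any type (3.78%). Of the 145 KO genes, 127 also passed in WT in the same direction (54 rises and 73 falls), which is 87.6% of the KO calls and 20.1% of the WT calls, and 0 passed in the opposite one. The KO and WT contrasts share no library, but each gene's spread in both came from the same fit of all 12 libraries. Calls in KO and WT are therefore not independent. Across all 12065 genes the log2 differences had the same sign for 74.6% and correlated at a Pearson coefficient of 0.68 and a Spearman coefficient of 0.65, a description across genes that are not independent replicates. Of the 145, 144 had the same sign in WT, and 85 changed less in KO than in WT. Socs3 rose by 2.66 ± 0.28 in KO and 2.35 ± 0.28 in WT, with an interaction of 0.31 ± 0.39 (unadjusted p = 0.445). Zfp683 fell by 3.79 ± 0.29 and 4.21 ± 0.29, with an interaction of 0.41 ± 0.41 (unadjusted p = 0.338), and Hmox1 rose by 2.01 ± 0.31 and 1.96 ± 0.31.

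A few genes stood nearest to a difference without passing. Of the 145, 17 had an unadjusted interaction p under 0.05, while 2.37% of all 12065 genes did. The 145 were picked by the KO contrast, which is part of the interaction, so their share is not independent of that choice. Those of the 17 that fell less in KO included Cd226 (-1.53 in KO and -2.53 in WT, unadjusted p = 0.00721), Cd40lg (-1.15 and -1.91, 0.00514) and Cd3g (-1.37 and -2.15, 0.0264). Ntrk3, a neurotrophin receptor, was the 1 KO call with the opposite sign in WT. It was at 9.42, 7.52 and 11.3 FPKM in KO controls and at 4.22, 4.42 and 3.79 after IRI (-1.003 ± 0.18, adjusted p = 0.032, and 0.126 without KO IRI 3), against 0.20 ± 0.18 in WT. Its interaction was -1.20 ± 0.25 (unadjusted p = 0.000586, adjusted p = 0.9995), the smallest p with a lower KO response, followed by Ctsh, Cd36, Klhl22 and Tatdn3. In the other direction the smallest p-values were those of Gm17655 (2.86 ± 0.59, unadjusted p = 0.000592), Npr2, 1700057G04Rik, Dcun1d3 and Izumo4, all with an adjusted p of 0.9995. Without KO control 1 the predicted gene Gm10382 was among those that passed (-5.27 ± 0.40, adjusted p = 0.00123). It was listed at 0 in KO control 1 and in all 3 KO IRI libraries, and such a 0 can be a failed estimate.

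**Figure D4:**
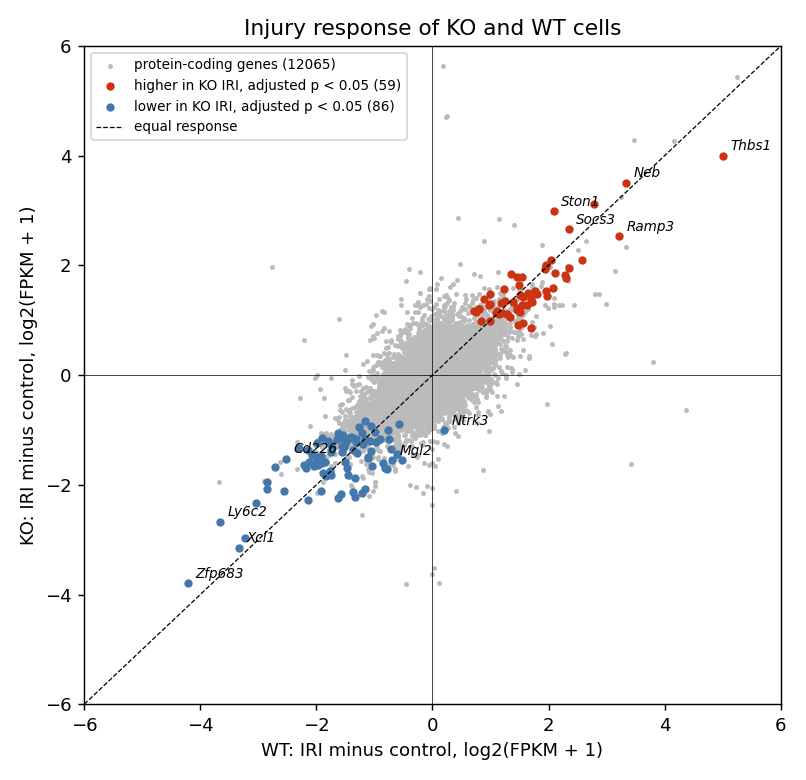
Log2 difference between IRI and control in WT (x axis) and KO (y axis) for the 12065 protein-coding genes, with the 59 that rose in KO in red, the 86 that fell in blue and the dashed line at an equal response. The coloured points lie along the line toward the upper right and the lower left except Ntrk3, which lies at -1.003 in KO and 0.20 in WT.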

How the data were processed

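Total RNA of sorted kidney CD4 T cells was sequenced in 12 libraries, 3 in each of 4 groups, per the labels' protocols. The authors deposited 1 table of FPKM per gene and library, per the file headers. Build GRCm38 and the tools Partek 7.0, Cufflinks 2.2.1, TopHat2 2.1.0 and bcl2fastq 2.17.1.14 are listed, without their roles, in the submitters' processing notes. Strand setting, annotation release and scaling between libraries are not given in the sources used here. FPKM gives no counts, so depth is unknown, and a value of 0 can be a failed estimate. Gene types and coordinates came from GENCODE mouse release 21 (52485 of 52632 IDs matched), and promoters from RefSeq GRCm38.p6.

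Values were used as deposited. Genes of any type with a mean of at least 1 FPKM (19288) were fitted with limma 3.58.1 in R 4.3.3 (lmFit, eBayes with trend) on log2(FPKM + 1), with 4 group means, all 12 libraries, 8 residual degrees of freedom and no replicate block. Adjustment was by Benjamini-Hochberg at 0.05, also for every adjusted p printed. Rescaling used median-ratio size factors from the 16018 genes above 0 throughout. The script was tested on simulated data. Marker sums were compared by exact permutation tests (scipy 1.17.1). Shares of genes, promoters and lists carry no test.

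Named genes are the 12 largest rises and 12 largest falls that passed without overlap (no predicted genes or receptor segments), up to 4 members per list that passed, 11 NRF2 genes and 7 lineage markers, and the 5 smallest interaction p-values in each direction. Arid5a, Cblb, Samd3, Gpr146, Arid5b, Inpp5a and Gm10382 fall outside this rule and were chosen after their values were seen. The 12065 genes were set by a fixed threshold, but the gene lists, the motifs and the question were chosen with earlier results of these data known. Alternatives were other pseudocounts, filters, scalings, weights, gene sets, a replicate block and leaving out each library.

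Some genes are not reported here.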

Additional observations from a re-analysis of the deposited data

Results flagged for a closer look

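The response of 1 gene of any type differed between genotypes by the interaction test. Gm25744, a small nucleolar RNA on chromosome 17, was at 744, 110 and 195 FPKM in KO controls and listed at 0 in all 3 KO IRI libraries and in all 3 WT controls. In WT IRI it was at 2.26e-05 FPKM in 1 library and 0 in the others, so that WT offers no measurable response to compare. Its interaction was -7.982 on the log2(FPKM + 1) scale (adjusted p = 0.00844), and it did not pass at a pseudocount of 5.

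In 13 of the 12065 protein-coding genes (0.108%) the IRI libraries lay all to one side of the controls in KO and all to the other in WT. Cd36, Ctsh and Npr2 are those of the 13 that were also among the 5 smallest interaction p-values in a direction. Their interaction did not pass after adjustment (adjusted p = 0.9995 for each). Cd36, a fatty acid transporter, had an interaction of -1.255 (unadjusted p = 0.0017), with KO means of 7.70 and 3.98 FPKM and WT means of 4.05 and 5.84. Ctsh, a lysosomal protease, had -1.123 (unadjusted p = 0.00114), with 17.8 and 10.3 FPKM in KO and 10.96 and 14.6 in WT. Npr2, a natriuretic peptide receptor, had 2.622 (unadjusted p = 0.00085), with 0.253 and 1.53 FPKM in KO and 5.13 and 0.860 in WT.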

How the results depend on the processing

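Over 23 alternatives, 28 of the 145 protein-coding genes (14 higher, 14 lower) kept their call in 22, losing it in the fit of the 6 KO libraries alone, and 0 of the 145 reversed. Counts of calls moved more. The 167 genes of any type (145 protein-coding) became 78 (64) without a filter, 398 (360) rescaled by median ratios, 327 (293) after quantile normalization, 335 (300) at a common sum, 2764 (2060) with array weights, 552 (552) with protein-coding genes alone and 8 (0) with the 6 KO libraries alone. Leaving out 1 library gave 44 to 848 (33 to 607), with KO IRI 2 the lowest and KO control 2 the highest. Chosen after seeing the data, leaving out KO control 1, WT control 3 and WT IRI 3 gave 40 (28), rescaling without KO control 2 gave 544 (366), and the 6 KO libraries with a replicate block gave 3 (0). The 46 calls among listed genes became 95, 84 and 86 under the 3 scalings and 16 to 111 without 1 library. The interaction count of 1 became 0 at a pseudocount of 5, 3 without a filter, 0 with protein-coding genes alone, 2 to 12 without 1 library, 28 without the 3 libraries and 5 rescaled without KO control 1. The WT count of 729 became 405 without a filter, 1531 rescaled, 1767 after quantile normalization, 1114 at a common sum, 2242 with weights, 1169 with protein-coding genes alone, 255 to 917 without 1 library, 224 without the 3 libraries, 1360 rescaled without KO control 1 and 1358 rescaled without KO control 2. The cause was not tested. The sign turned for Izumo4 and Dcun1d3, neither of which passed: the log2 difference of Izumo4 was -0.0210 at a common sum, -0.208 with weights and -0.129 to 0.210 without 1 library, and the log2 difference of Dcun1d3 was -0.00693, -0.0831 and -0.0529 to 0.2003. After rescaling, Stat3, Il10, Cxcr3 and Mx1 passed as well, and Cd69, near 0, turned from -0.02 to 0.09.

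With the replicate number as a block, 143 genes passed (49 higher, 94 lower), 124 of them protein-coding and 102 of these shared with the 145. The calls of Tigit, Il4ra, Gadd45g, Arid5b, Thy1, Cd96, Entpd1, Clec9a and Ntrk3 ended under the block. Same-numbered KO libraries deviated together at correlations of 0.17, 0.15 and 0.04, and differently numbered ones at -0.18 to 0.06. Each KO control correlated best with the IRI library of its own number, but KO IRI 3 correlated best with KO control 2 (0.06). These correlations do not settle whether the numbers pair the samples. The main fit had no block because the labels do not say that equal numbers share an animal or day. FPKM without counts sets no limit from depth.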
